A study of Rattus norvegicus with 30 samples.

Results

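The DNA repair and replication checkpoint genes described here are 33 genes chosen by name, with earlier results of these data known. They cover the checkpoint kinases, the proteins that protect stalled replication forks, homologous recombination, the Fanconi anemia pathway, base excision and mismatch repair, the specialised polymerases and the histone that marks broken chromatin. A gene counted as measured where a probe set carried its symbol and no other, which held for 30 of the 33 among 18166 genes measured in all. Each of the 30 had 1 probe set, and Atr, Tipin and Blm are not analysed here. RNA was taken from the livers of 30 wild-type Wistar rats, 1 array per rat, in 5 groups of 6. The groups were unoperated rats, sham-operated rats, and rats that had lost 30, 70 or 90% of the liver by partial hepatectomy (PH30, PH70 and PH90), with tissue removed 24 hours after surgery and snap frozen. The question behind the series is how gene expression in the liver remnant depends on how much was removed.

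Values are log2 expression relative to the gene's median over the 30 arrays, so a value of 1 is 2 times that median. The level of a gene is lost by this centring, and neither the levels of 2 genes nor the tissue's defining markers could be checked. Array medians lay between -0.009 and 0.022. Where 3 values are given for a group, they are its lowest, median and highest rat. A difference subtracts the second group's mean from the first group's, SE is its moderated standard error, and a gene is called at a Benjamini-Hochberg adjusted p below 0.05 over all 18166 genes in limma. The 3 resections share 1 set of 6 sham rats, so their differences from sham are not independent. The unoperated rats carry the highest animal numbers, and order and lack of an operation cannot be told apart.

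A cell that copies its DNA meets damage and stalled forks. The kinases Atm and Atr sense them and, through Chek2 and Chek1, hold the cycle until they are dealt with. Homologous recombination then repairs breaks from the sister copy, the Fanconi anemia proteins clear crosslinks that block forks, and excision repair removes single damaged or misplaced bases. Hepatocytes rarely divide in the adult liver but re-enter the cycle after partial hepatectomy, and in the rat many of them copy their DNA about a day after removal of the larger part of the liver.

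The stretches before the gene starts of 3 members are shown because these genes stand for the patterns in the data: Chek1, high in PH70 and near sham in PH90, Topbp1, high in both, and H2ax, with the largest difference. They were searched on both strands for E2F-type letters (TTTGGCGC, TTTCCCGC, TTTGGCGG or TTTCCCGG), which resemble the sites of the E2F factors of S phase, for CHR-type letters (TTTGAA), which resemble an element of genes of late cell cycle, and for CCAAT. Capitals mark the matches. The sequences are from RefSeq (assembly GRCr8), on the gene's strand.
Chek1, chr8:44629868-44630093, minus strand: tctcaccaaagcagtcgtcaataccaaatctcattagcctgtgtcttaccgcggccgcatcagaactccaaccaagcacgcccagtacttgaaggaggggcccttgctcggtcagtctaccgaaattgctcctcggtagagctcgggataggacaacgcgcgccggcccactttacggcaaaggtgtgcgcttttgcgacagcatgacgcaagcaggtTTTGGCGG
Topbp1, chr8:112766541-112766790, plus strand: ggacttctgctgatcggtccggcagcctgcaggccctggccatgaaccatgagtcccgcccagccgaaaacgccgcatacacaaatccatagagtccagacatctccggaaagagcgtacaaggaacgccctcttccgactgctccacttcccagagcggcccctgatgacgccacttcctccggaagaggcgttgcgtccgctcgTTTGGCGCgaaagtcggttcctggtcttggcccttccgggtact
H2ax, chr8:53568468-53568717, plus strand: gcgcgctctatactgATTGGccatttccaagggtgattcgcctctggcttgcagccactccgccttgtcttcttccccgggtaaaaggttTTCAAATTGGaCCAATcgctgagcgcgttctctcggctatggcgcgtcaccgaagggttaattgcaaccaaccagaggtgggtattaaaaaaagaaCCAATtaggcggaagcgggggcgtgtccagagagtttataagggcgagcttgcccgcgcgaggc
The Chek1 stretch stops 24 bases before the listed start, and its match lies 32 to 25 bases before it, with a second, overlapping one on the other strand at 28 to 21 bases that is shown in part. The Topbp1 match lies 44 to 37 bases before the start. In H2ax the CHR-type letters lie 160 to 155 bases before the start, as their reverse complement TTCAAA, and overlap the first base of an ATTGG, 1 of 4 CCAAT matches on either strand. Of the 27 measured members with an entry in the sequence table, 5 (18.5%) held the E2F-type letters within 250 bases, namely Atm, Bard1, Chek1, Clspn and Topbp1, against 2.86% of all 27457 promoters. The CHR-type letters were in 5 of the 27 (18.5%), against 16% of all promoters, and CCAAT was in 10 (37%), against 34.3%. For Atm, Bard1, Brca1, Rbbp8 and Ung, all 250 bases searched lie within the gene's own annotated extent, so their matches are not upstream of it. A match is a description of the letters, not a site.

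Removal of 70% of the liver came with higher expression of nearly the whole group. Against sham rats 29 of 30 members rose and 0 fell, where 10.5% of all genes rose and 8.15% fell. The median difference of the members was 0.77, against -0.01 over all genes. Because the members were chosen with earlier results of these data known, the contrast with all genes is a description, not separate support. The differences ran from 0.09 for Pold3, the member that did not pass, to 2.89 for H2ax. For 11 members (36.7%) every PH70 rat lay above every sham rat, where the 2 groups did not overlap, in either direction, for 7.34% of all genes. In bulk tissue more cells with a transcript and more of it per cell cannot be told apart.

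The rats of a group were not alike, and this touches every result below. The median over the 30 members was 0.66 to 0.89 in 5 PH70 rats and -0.06 in PH70 rat 139, which was the lowest of its group for 29 of 30 members, the exception being Rad1. In PH30 the medians ran from -0.08 to 0.26 in 5 rats and stood at 0.90 in rat 95, the highest of its group for 29 of 30 members and the lowest for Ung. The PH90 rats ran from -0.12 to 0.35, the sham rats from -0.27 to -0.10 and the unoperated rats from -0.16 to -0.02. Of the 30 members, 28 or 29 lay above the highest sham rat in each of the other 5 PH70 rats, and 11 did in rat 139. The labels of rats 95 and 139 were kept, and for the main results that rest on them values without both are given too. Overlap between groups and the PH90 share of the PH70 difference are given with all rats only. Both rats stood out in the values of these same members, so fits without them are descriptions and no separate support.

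**Figure D1:**
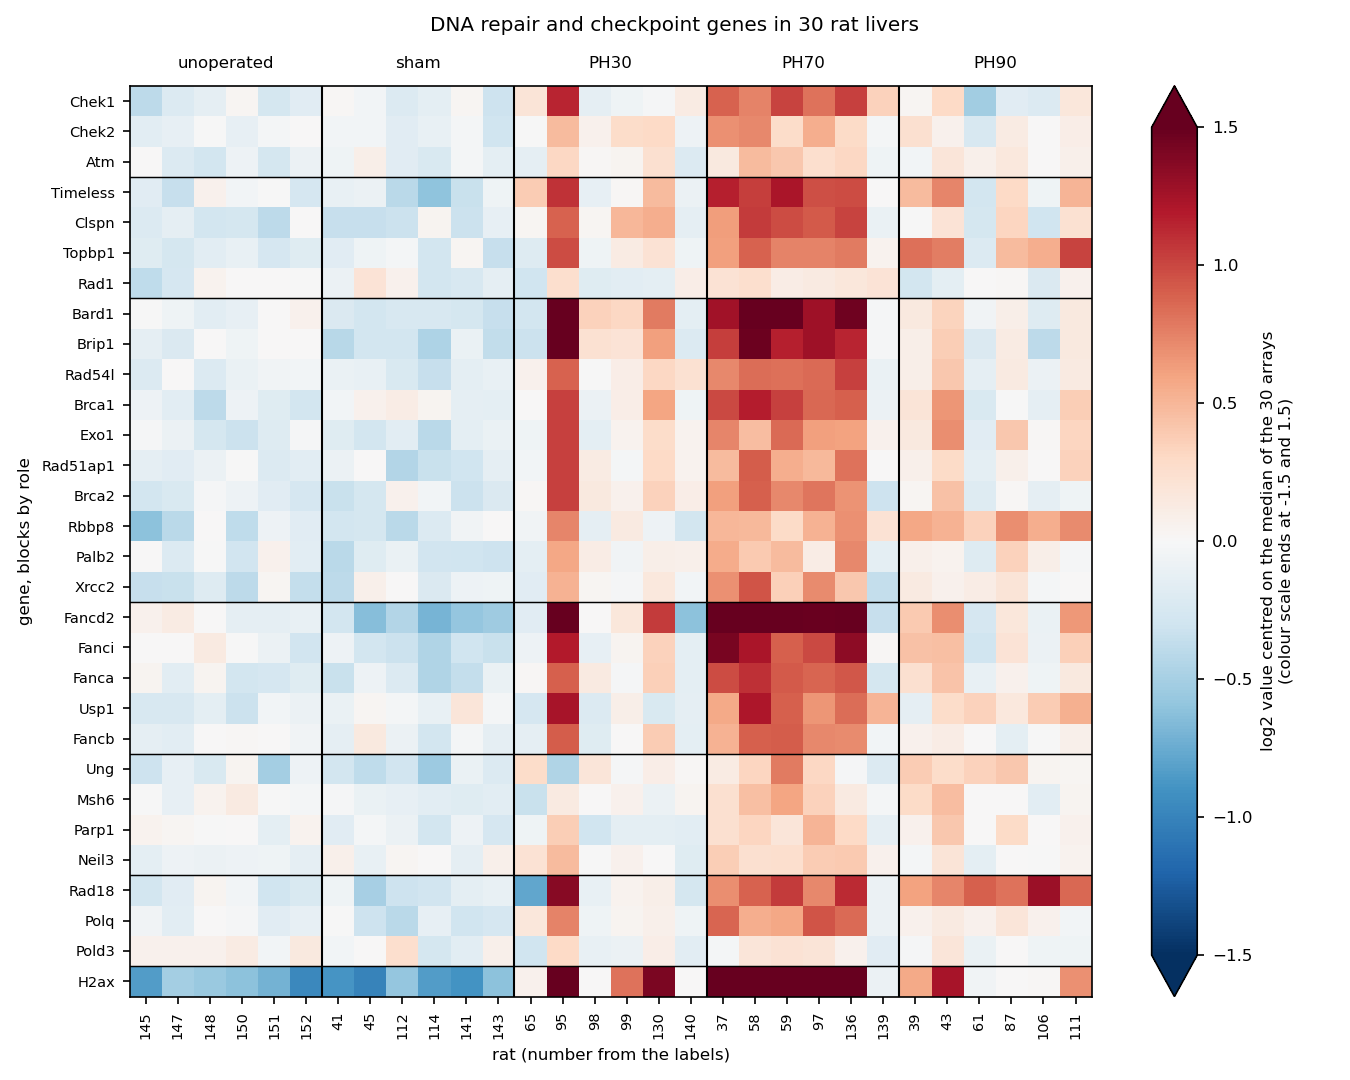
Log2 value of each of the 30 members (rows, by role) in each of the 30 rats (columns, by group), relative to the member's median over all arrays, as colour, with the scale ending at -1.5 and 1.5. Most rows are high in 5 of the 6 PH70 rats and in PH30 rat 95, and low in PH70 rat 139.

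**Figure D2:**
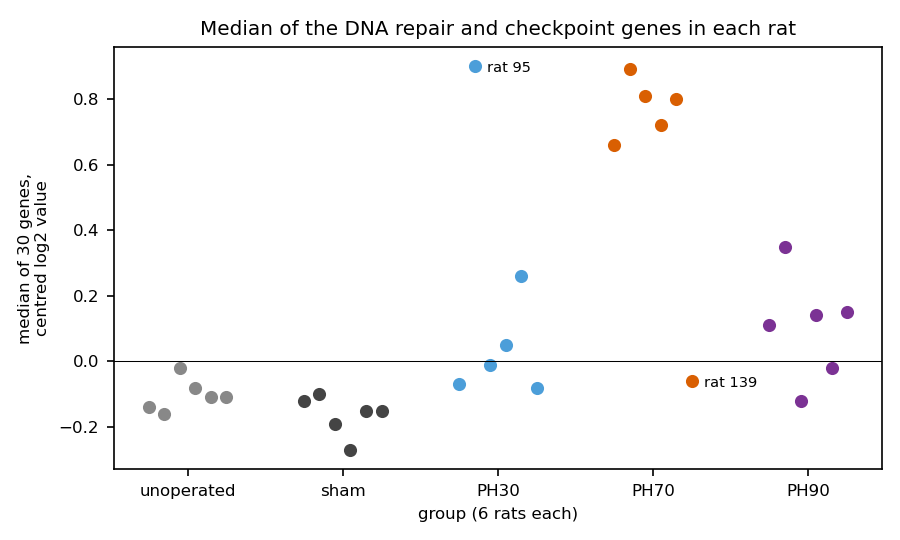
Median log2 value over the 30 members in each rat, by group, 1 point per rat. PH70 rat 139 (-0.06) and PH30 rat 95 (0.90) lie outside the range of the other rats of their groups.

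H2ax, the histone variant that is phosphorylated around DNA breaks, had the largest difference of the group. Its lowest, median and highest rat were -0.09, 2.45 and 2.83 in PH70, against -1.0, -0.86 and -0.58 in sham. The groups did not overlap although rat 139 was the PH70 rat at -0.09. H2ax was 7.39-fold higher in PH70 (difference 2.89, SE 0.41, adjusted p = 1.5e-05), in 6 of 6 rats, and ranked at 6 from the top among 18166 genes. Without rats 95 and 139 the difference was 3.32.

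Each of the 3 measured checkpoint kinases rose. Chek1, the kinase that Atr activates when forks stall, had a lowest, median and highest value of 0.35, 0.85 and 1.03 in PH70, against -0.31, -0.09 and 0.03 in sham, with no overlap. It was 1.89-fold higher (difference 0.92, SE 0.16, adjusted p = 9.7e-05). Chek2, the kinase that Atm activates at double-strand breaks, stood at -0.03, 0.42 and 0.72 in PH70, against -0.30, -0.07 and -0.03 in sham (difference 0.53, adjusted p = 0.00041). Atm itself, the sensor kinase for such breaks, changed least of the 3. It stood at -0.07, 0.28 and 0.47 in PH70, against -0.23, -0.11 and 0.09 in sham, and was 1.27-fold higher (difference 0.35, SE 0.09, adjusted p = 0.004). The groups overlapped for Atm, while 6 of 6 PH70 rats were above the sham mean.

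All 4 measured proteins of fork protection and kinase activation rose as well, by very different amounts. Timeless, which travels with the fork together with Tipin, stood at 0.01, 1.01 and 1.23 in PH70, against -0.60, -0.22 and -0.07 in sham, and was 2.24-fold higher (difference 1.17, SE 0.19, adjusted p = 6.8e-05). Clspn, the adaptor that brings Chek1 to Atr, stood at -0.10, 0.95 and 1.05 in PH70, against -0.34, -0.32 and 0.04 in sham (difference 0.98, adjusted p = 8.5e-05). Its groups overlapped through rat 139 alone, and Timeless was free of overlap with that rat included. Topbp1, an activator of Atr that also serves at the start of replication, was 1.71-fold higher (difference 0.78, SE 0.17, adjusted p = 0.0012). Rad1, a subunit of the clamp that is loaded at damaged DNA, had the smallest rise among the called members. It stood at 0.11, 0.18 and 0.25 in PH70, against -0.27, -0.11 and 0.20 in sham (difference 0.26, SE 0.09, adjusted p = 0.044), a call that was lost in 10 of the 12 fits that each left out 1 PH70 or sham rat.

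The 10 genes of homologous recombination rose without exception, by 0.57 to 1.43. Bard1, the partner of Brca1 in a ubiquitin ligase, led them. Its rats stood at -0.02, 1.37 and 1.54 in PH70, against -0.35, -0.25 and -0.22 in sham, with no overlap, and it was 2.70-fold higher (difference 1.43, SE 0.22, adjusted p = 3.5e-05). Brip1, a helicase that binds Brca1, was 2.51-fold higher (difference 1.33, SE 0.22, adjusted p = 7.9e-05). Brca1, which steers breaks toward recombination, differed by 0.83 and Brca2, which serves at the strand exchange step, by 0.75. In both genes 5 of 6 PH70 rats exceeded the mean of sham. Palb2, the link between Brca1 and Brca2, differed by 0.62. The enzymes that trim broken ends, Rbbp8 at the first step and the exonuclease Exo1 after it, differed by 0.65 and 0.77. Rad54l, a motor protein of recombination, and Rad51ap1, an accessory factor, differed by 0.87 and 0.76. Xrcc2, which also acts in recombination, had the smallest rise: -0.36, 0.55 and 0.94 in PH70, against -0.39, -0.07 and 0.08 in sham (difference 0.57, SE 0.14, adjusted p = 0.0037), with the groups overlapping and 5 of 6 rats above the sham mean. The lowest PH70 rat of Xrcc2, at -0.36, was again rat 139.

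In the Fanconi anemia pathway 5 of 5 measured members rose, and their median difference, 1.01, was the highest of the roles with more than 1 member. Fancd2, which is ubiquitinated as the central step of crosslink repair, stood at -0.34, 1.71 and 2.04 in PH70, against -0.70, -0.55 and -0.27 in sham, and was 3.82-fold higher (difference 1.94, SE 0.33, adjusted p = 8.5e-05). The lowest PH70 rat lay below the highest sham rat, so the groups overlapped. Fanci, the partner of Fancd2, differed by 1.28 (SE 0.20, adjusted p = 3.3e-05) and Fanca, of the core complex that ubiquitinates the pair, by 1.01 (SE 0.17, adjusted p = 7.5e-05). Usp1, which removes the ubiquitin again, differed by 0.79. Fancb, another core complex member, had the smallest rise: it stood at -0.04, 0.71 and 0.91 in PH70, against -0.28, -0.11 and 0.15 in sham (difference 0.71, SE 0.14, adjusted p = 0.00066). For Fanci and Usp1 all 6 PH70 rats, rat 139 included, lay above the highest sham rat.

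Base excision and mismatch repair changed less. Its 4 members rose by 0.29 to 0.52, with a median of 0.40 and overlapping groups for each. Ung, which cuts uracil out of DNA, stood at -0.21, 0.22 and 0.78 in PH70, against -0.54, -0.28 and -0.10 in sham (difference 0.52, SE 0.13, adjusted p = 0.004). Neil3, a glycosylase that also opens crosslinks, stood at 0.06, 0.31 and 0.39 in PH70, against -0.14, 0.02 and 0.08 in sham (difference 0.29, SE 0.08, adjusted p = 0.0074). For both, 6 of 6 PH70 rats lay above the sham mean. Msh6, which recognises mismatches, differed by 0.41 and Parp1, which senses strand breaks, by 0.38. The call of Parp1 was lost when unoperated rats took the place of sham.

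The polymerases and damage tolerance genes divided. Rad18, the ligase that marks the replication clamp for bypass of lesions, stood at -0.09, 0.80 and 1.12 in PH70, against -0.50, -0.22 and -0.06 in sham (difference 0.97, SE 0.22, adjusted p = 0.0016). Polq, the polymerase of microhomology-mediated joining, differed by 0.85 (SE 0.13, adjusted p = 2.6e-05). Pold3, an accessory subunit of polymerase delta, was the member that did not pass. Its rats stood at -0.17, 0.12 and 0.22 in PH70, against -0.26, -0.02 and 0.25 in sham (difference 0.09, SE 0.09, adjusted p = 0.55), 4 of 6 above the sham mean. It was not called against sham without rats 95 and 139 either.

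**Figure D3:**
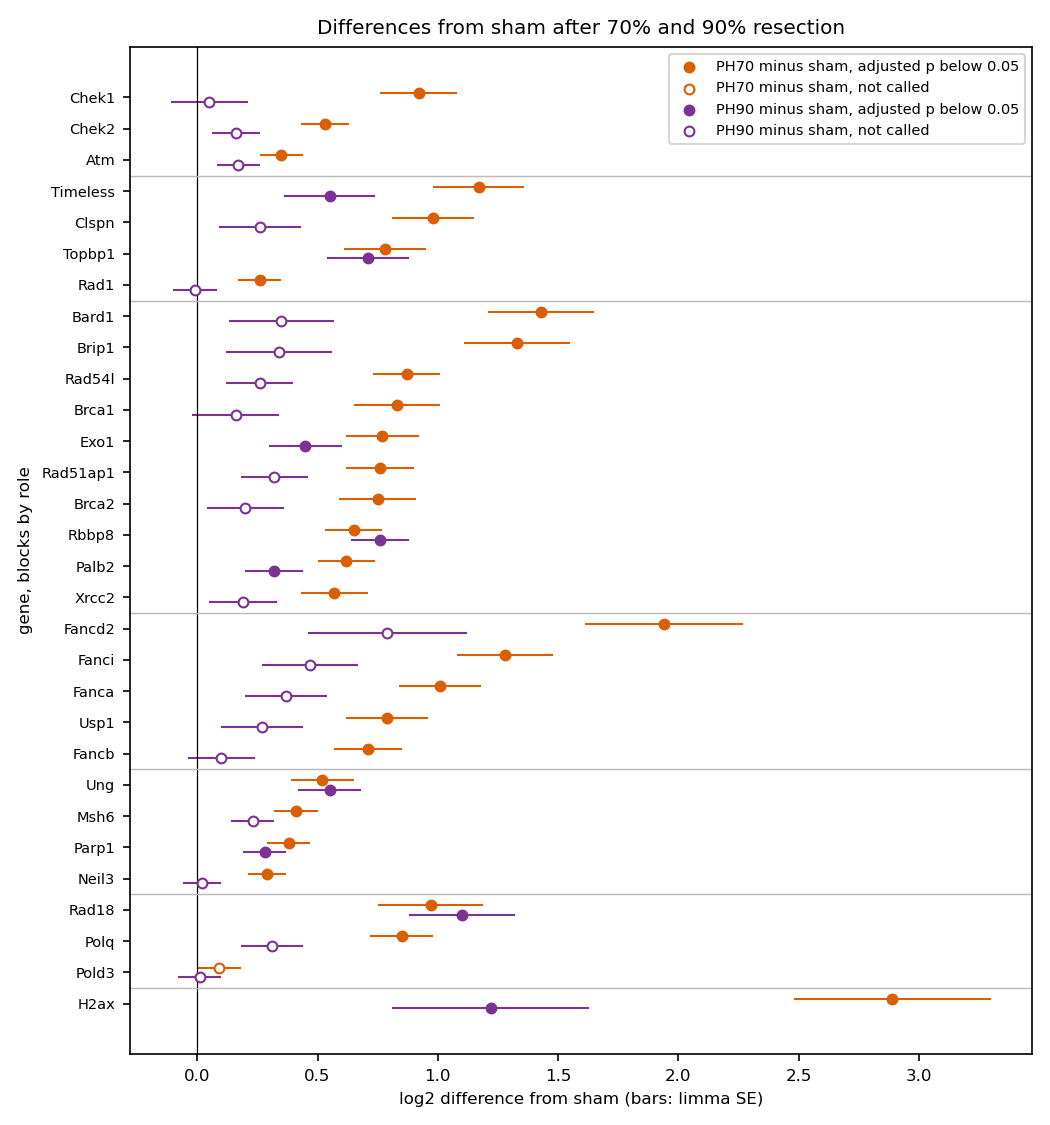
Log2 difference from sham of each member (rows, by role) in PH70 and PH90, with bars of 1 SE and points filled where the adjusted p was below 0.05. Most PH70 points lie to the right of their PH90 points, and Rbbp8, Ung and Rad18 have PH90 to the right.

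Values were lower again after the largest resection. Between PH90 and PH70 rats 0 members were higher and 20 of 30 were lower, where 14.1% of all genes were higher and 10.4% lower. Without rats 95 and 139 these 20 stayed lower, and Atm, Palb2, Exo1 and Msh6 were called lower too. In that fit 11.1% of all genes were lower. Rat 139 was the lowest PH70 rat for nearly all members, so leaving it out widens most of these differences by construction. The median difference of the members was -0.48, against 0.01 over all genes. The mean was highest in PH70 for 27 members and in PH90 for 3, Rbbp8, Ung and Rad18. As a description of the 29 members that rose in PH70, the difference of PH90 from sham was 36.8% of that of PH70 at the median, from -4.2% to 118.0%.

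Chek1 showed the gap most plainly. It stood at -0.52, -0.07 and 0.30 in PH90, against 0.35, 0.85 and 1.03 in PH70, so that no PH90 rat reached the lowest PH70 rat. It was 1.83-fold lower in PH90 (difference -0.87, SE 0.16, adjusted p = 8.6e-05) and differed from sham by 0.05 (adjusted p = 0.87). Rad1 was the other member free of overlap, so that 2 of 30 (6.67%) were, against 10.5% of all genes. It stood at -0.27, -0.07 and 0.06 in PH90, against 0.11, 0.18 and 0.25 in PH70 (difference -0.27, SE 0.09, adjusted p = 0.027). Chek2 stood at -0.24, 0.08 and 0.24 in PH90 (difference from PH70 -0.37, adjusted p = 0.0082), while Atm, at -0.04, 0.08 and 0.18, was not called lower (difference -0.18, adjusted p = 0.15).

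H2ax was 3.18-fold lower in PH90 than in PH70, with rats at -0.05, 0.30 and 1.24 in PH90 (difference -1.67, SE 0.41, adjusted p = 0.0027). It remained above sham in 6 of 6 PH90 rats with no overlap (difference 1.22, adjusted p = 0.021). Among the fork proteins, Clspn stood at -0.30, 0.10 and 0.32 in PH90 (difference from PH70 -0.72, adjusted p = 0.0014). Timeless stood at -0.28, 0.39 and 0.73 in PH90 (difference from PH70 -0.62, adjusted p = 0.016) and was at the same time above sham (difference 0.55, adjusted p = 0.027), so its mean lay between those of PH70 and sham.

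All 5 Fanconi anemia members were lower in PH90 than in PH70, by 0.52 to 1.15. Against sham their PH90 differences were positive, from 0.10 to 0.79, and 0 of 5 were called, where 19.9% of all genes were higher. Without rats 95 and 139, which left these differences as they were, Fanca (adjusted p = 0.0013), Fancd2 (0.00078), Fanci (0.0015) and Usp1 (0.028) were called. Fancd2 stood at -0.25, 0.28 and 0.70 in PH90 (difference from PH70 -1.15, SE 0.33, adjusted p = 0.0089). Against sham Fancd2 differed by 0.79 (adjusted p = 0.062) with no overlap between PH90 and sham rats. Fanci stood at -0.30, 0.28 and 0.45 in PH90 (difference from PH70 -0.81, adjusted p = 0.0024), and Fanca at -0.11, 0.11 and 0.43 (-0.64, adjusted p = 0.0048). The highest PH90 rat of each of these 3 genes lay above no PH70 rat but rat 139. Fancb stood at -0.15, 0.03 and 0.11 in PH90 (-0.60, adjusted p = 0.002), and Usp1 at -0.14, 0.31 and 0.53 (-0.52, adjusted p = 0.021).

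In homologous recombination 7 of 10 members were lower in PH90 than in PH70. Bard1 stood at -0.19, 0.12 and 0.33 in PH90 (difference from PH70 -1.09, SE 0.22, adjusted p = 0.00043) and Brip1 at -0.39, 0.11 and 0.37 (-0.99, SE 0.22, adjusted p = 0.0011). The highest PH90 rat of each lay above PH70 rat 139 alone. Brca1 stood at -0.23, 0.09 and 0.66 in PH90 (-0.67, adjusted p = 0.0056), Brca2 at -0.19, -0.02 and 0.44 (-0.55, adjusted p = 0.01), and Rad54l at -0.14, 0.11 and 0.40 (-0.61, adjusted p = 0.0012). The differences of Rad51ap1 and Xrcc2 were the smallest of the 7. Rad51ap1 stood at -0.15, 0.08 and 0.35 in PH90 (-0.43, adjusted p = 0.023) and Xrcc2 at -0.03, 0.09 and 0.19 (-0.38, adjusted p = 0.047). The call of Xrcc2 was lost in 11 of the 12 fits that each left out 1 rat, in the fit of the 2 groups alone and after quantile normalization. Of the other roles, Polq stood at -0.04, 0.07 and 0.18 in PH90 (-0.53, adjusted p = 0.002) and Neil3 at -0.15, -0.01 and 0.19 (-0.27, adjusted p = 0.0084). Of the 20 members called lower, 7 lost the call in at least 1 alternative fit, namely Chek2, Timeless, Rad1, Rad51ap1, Xrcc2, Fancd2 and Usp1.

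Some members were as high in PH90 as in PH70 or nearly so. Against sham 9 of 30 were higher in PH90 and 0 lower, where 19.9% of all genes were higher and 14.7% lower. The share called higher was thus nearer to that of all genes than in PH70. The median difference of the members from sham was 0.30, against 0.00 over all genes, and 29 of 30 differences were positive. The 9 were H2ax, Timeless, Topbp1, Rbbp8, Exo1, Palb2, Ung, Parp1 and Rad18. Rad18 stood at 0.60, 0.84 and 1.28 in PH90, against -0.50, -0.22 and -0.06 in sham, and was 2.15-fold higher (difference 1.10, SE 0.22, adjusted p = 0.00013). Rbbp8 stood at 0.35, 0.57 and 0.71 in PH90, against -0.40, -0.23 and 0.00 in sham (difference 0.76, SE 0.12, adjusted p = 9.4e-06). Neither gene had overlapping groups. Topbp1 stood at -0.21, 0.66 and 1.01 in PH90, against -0.35, -0.12 and 0.03 in sham (difference 0.71, SE 0.17, adjusted p = 0.0011), and Ung at 0.03, 0.31 and 0.41, against -0.54, -0.28 and -0.10 (difference 0.55, SE 0.13, adjusted p = 0.00094). For these 4 genes the PH90 difference from sham was 91.4% to 118.0% of the PH70 one, and their PH90 minus PH70 differences, from -0.07 to 0.14, did not pass (adjusted p from 0.61 to 0.92). The other called members had smaller differences from sham. Exo1 stood at -0.17, 0.23 and 0.70 in PH90, against -0.40, -0.17 and -0.10 in sham (difference 0.45, adjusted p = 0.02), and Palb2 at -0.19, 0.06 and 0.34, against -0.41, -0.30 and -0.10 (difference 0.32, adjusted p = 0.031). Both had overlapping groups. Parp1 stood at 0.00, 0.07 and 0.40 in PH90, against -0.27, -0.13 and -0.03 in sham (difference 0.28, adjusted p = 0.019), with no overlap.

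The count of 9 depended on single choices. It was 5 without PH90 rat 43, where H2ax, Timeless, Exo1 and Parp1 lost their calls, where 19.4% of all genes were higher, and 19 without rats 95 and 139, where 21.1% were. Neither of the 2 rats is in the groups compared, so that only the shared spread changed. With unoperated rats in place of sham, Timeless, Exo1, Palb2 and Parp1 lost their calls and Atm and Usp1 gained one. There 19.3% of all genes were higher. Palb2 lost its call in 6 and Timeless in 5 of the 12 fits that each left out 1 rat. Topbp1, Rbbp8, Ung and Rad18 kept their calls in all fits run.

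**Figure D4:**
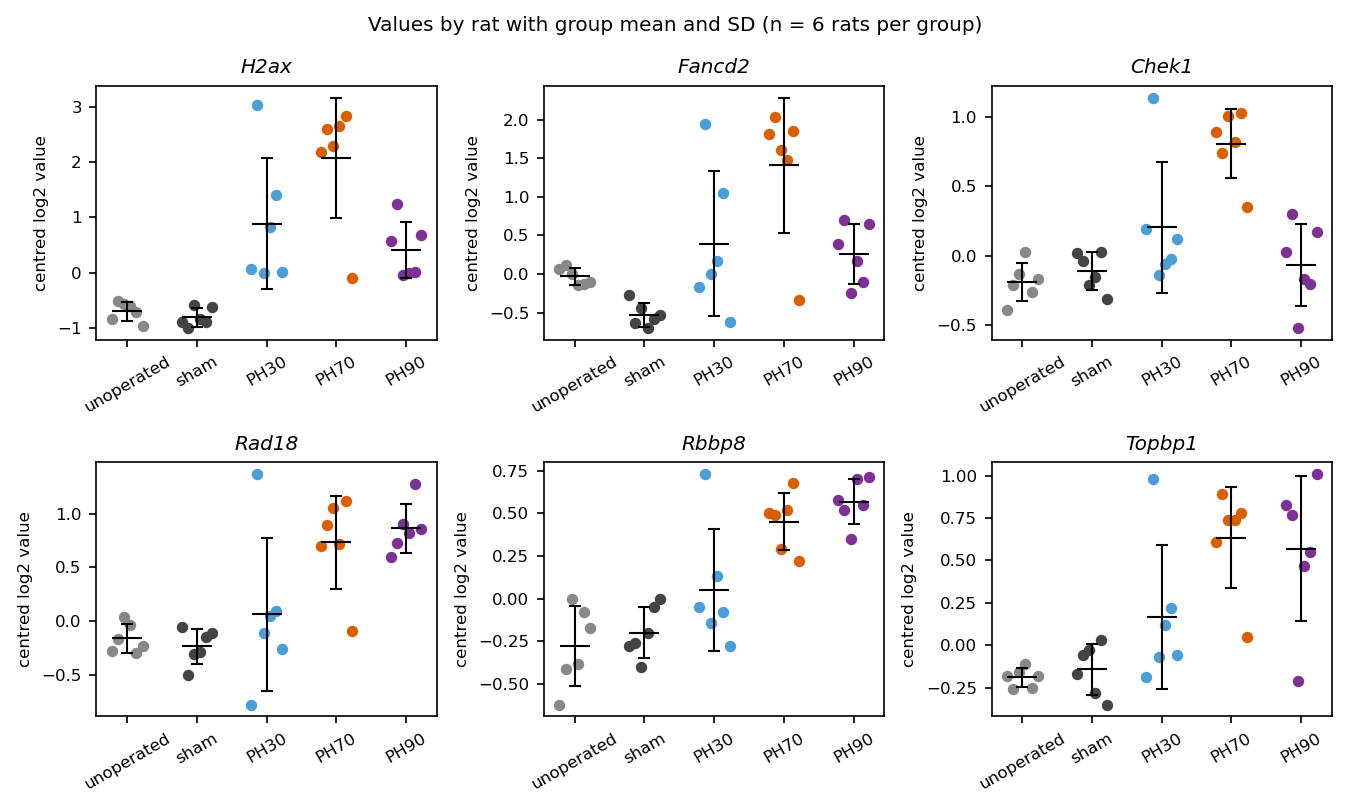
Log2 values of 6 members, relative to the median over all arrays, in every rat (points) by group, with bars for the group mean and SD. H2ax, Fancd2 and Chek1 are high in 5 or 6 PH70 rats and lower in PH90, and Rad18, Rbbp8 and Topbp1 are high in both. The highest PH30 point of each gene is rat 95.

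After removal of 30% of the liver 29 of 30 members had a positive difference from sham, with a median of 0.32, against 0.01 over all genes. The test called 1 of them, H2ax, and 0 lower, where 2.2% of all genes were higher and 3.34% lower. At an unadjusted p below 0.05, 16 were higher and 0 lower, where 9.83% of all genes were higher and 10.3% lower. H2ax stood at 0.00, 0.45 and 3.03 in PH30, against -1.0, -0.86 and -0.58 in sham, with no overlap, and was 3.24-fold higher (difference 1.70, SE 0.41, adjusted p = 0.015). The value of 3.03, above every PH70 rat, was rat 95. Without rats 95 and 139 the H2ax difference was 1.27 (adjusted p = 0.00042). The members next in size were Fancd2 (0.92, adjusted p = 0.091), Bard1 (0.70, adjusted p = 0.063) and Brip1 (0.67, adjusted p = 0.073), none of which passed. Without the 2 rats 12 members were called, where 4.88% of all genes were higher, among them Bard1 with 0.47, Brip1 with 0.42 and Fancd2 with 0.61. The count was 4, 2, 5 and 2 without PH30 rats 65, 99, 140 and 95, where 1.45%, 1.49%, 2.21% and 3.39% of all genes were higher.

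Between PH70 and PH30 all 30 differences were positive, with a median of 0.44, and 4 were called, where 1.76% of all genes were higher. These were Fanci (0.78, adjusted p = 0.037), Usp1 (0.70, adjusted p = 0.035), Chek1 (0.60, adjusted p = 0.042) and Polq (0.47, adjusted p = 0.048). The groups overlapped for all 30 members, with no share of all genes given to set beside this. For all 4 the lowest PH70 rat was rat 139 and the highest PH30 rat was rat 95. Without both rats 29 of the 30 were called, where 8.87% of all genes were higher. Ung was the one that was not, and the difference was 0.88 for Chek1 and 1.67 for Fancd2. The count was 27 without rat 95 alone (7.44% of all genes), 24 without rat 139 alone (5.74%) and 0 without any single one of the other 10 rats of the 2 groups. Rat 95 was the highest PH30 rat and rat 139 the lowest PH70 rat for 29 of 30 members each. Leaving either out therefore widens most of these differences by construction.

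Between PH90 and PH30, 2 of 30 members were higher and 0 lower, where 18.4% of all genes were higher and 13.1% lower. They were Rad18 (0.81, SE 0.22, adjusted p = 0.0043) and Rbbp8 (0.52, SE 0.12, adjusted p = 0.0015), each in 6 of 6 PH90 rats. The groups of both genes overlapped through PH30 rat 95 alone. The median of the members was -0.06. The count was 5 without PH30 rat 95, where 19.2% of all genes were higher. In limma's F test for any difference between the 3 resections, 24 of 30 members passed, where 32.4% of all genes did. In a fit of the 3 resected groups alone 13 members passed, where 27.6% of all genes did. With all 5 groups in the fit, the 6 that did not were Atm, Topbp1, Palb2, Exo1, Ung and Pold3.

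The operation without resection left these genes without a call. Between sham and unoperated rats 0 of 30 members were called in either direction by limma, where 0.308% of all genes were higher and 0.429% lower, and 0 had an unadjusted p below 0.05. The median difference was -0.08. Fancd2 stood at -0.70, -0.55 and -0.27 in sham, against -0.14, -0.05 and 0.12 in unoperated rats, with no overlap (difference -0.50, SE 0.33, adjusted p = 0.64). Bard1 was likewise free of overlap (difference -0.22, adjusted p = 0.81). In a fit of these 2 groups alone, where 2.71% of all genes were lower, 3 members were lower in sham, Fancd2 (adjusted p = 0.0011), Bard1 (0.023) and Brip1 (0.045). Fancd2 and Bard1 were chosen here after their values were seen. The share of all genes free of overlap between these 2 groups is not given, so their lack of overlap is a description only.

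Of a list of 106 other DNA repair genes 94 were measured. Its checkpoint signalling part also holds the cell cycle regulators Wee1, Cdc25a, Cdc25b and Cdc25c. In PH70 against sham 36 rose and 5 fell, with a median of 0.18, where 10.5% of all genes rose and 8.15% fell. In PH90 against sham 32 rose and 9 fell, with a median of 0.15, where 19.9% of all genes rose and 14.7% fell. Checkpoint signalling had 8 of 13 higher and 0 lower, homologous recombination 9 of 16 higher and 1 lower, and base excision repair 7 of 14 higher and 1 lower in PH70. The Fanconi anemia pathway had 3 of 10 higher, translesion synthesis 4 of 11, mismatch repair 1 of 4 and direct reversal 1 of 3, each with 0 lower. Nucleotide excision repair had 2 of 13 higher and 2 lower, and end joining 1 of 10 higher and 1 lower. The counts by pathway were not tested against the shares of all genes, and the shortest lists hold 3 or 4 genes. The list was chosen with earlier results of these data known, so the counts are a description. Without rats 95 and 139 the PH70 counts over all 94 were 45 higher and 7 lower, where 12.7% of all genes were higher and 10.9% lower.

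The 5 largest called differences were Mdc1, Wee1, Ube2t, Hltf and Fen1. Mdc1, which binds phosphorylated H2ax, stood at -0.41, 1.64 and 1.96 in PH70, against -0.63, -0.40 and -0.27 in sham (difference 1.76, SE 0.27, adjusted p = 2.9e-05). Ube2t, the ubiquitin-conjugating enzyme of the Fanconi anemia pathway, stood at -0.02, 1.11 and 1.49 in PH70, against -0.34, -0.25 and -0.18 in sham (difference 1.23, SE 0.19, adjusted p = 3.4e-05). Both were lower again in PH90 than in PH70, Mdc1 with a difference of -1.21 (adjusted p = 0.00095) and Ube2t with one of -0.90 (adjusted p = 0.00059). Hltf, which modifies the replication clamp, differed by 1.17 in PH70 and stood in PH90 at a difference from PH70 of -1.31 (adjusted p = 3e-06), with no overlap. Wee1, the kinase that restrains entry into mitosis, and Fen1, which cuts flaps off lagging strands, held more of their rise in PH90. They differed from sham by 0.82 (adjusted p = 0.006) and 0.87 (adjusted p = 0.00035) in PH90 and by 1.30 and 1.11 in PH70, and their PH90 minus PH70 differences did not pass (adjusted p = 0.15 and 0.41).

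The 5 genes that fell in PH70 are named after their values were seen. Rad51d, of homologous recombination, stood at -0.18, -0.15 and -0.01 in PH70 and at -0.72, -0.60 and -0.47 in PH90, against 0.01, 0.33 and 0.67 in sham. The 3 groups did not overlap. Rad51d was lower than in sham by a difference of -0.50 in PH70 (adjusted p = 0.00023) and of -0.97 in PH90 (adjusted p = 8.8e-10). Its PH30 rats stood at -0.08, 0.03 and 0.38. Unoperated rats, at 0.52, 0.70 and 0.95, lay higher than sham at the median, though 0 of the 94 genes were called between those 2 groups. The other falls in PH70 were Lig4, the ligase of end joining (-0.39), Ercc5, a nuclease of nucleotide excision repair (-0.34), Xpa, which verifies damage in that pathway (-0.33), and Smug1, a uracil glycosylase (-0.22).

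**Figure D5:**
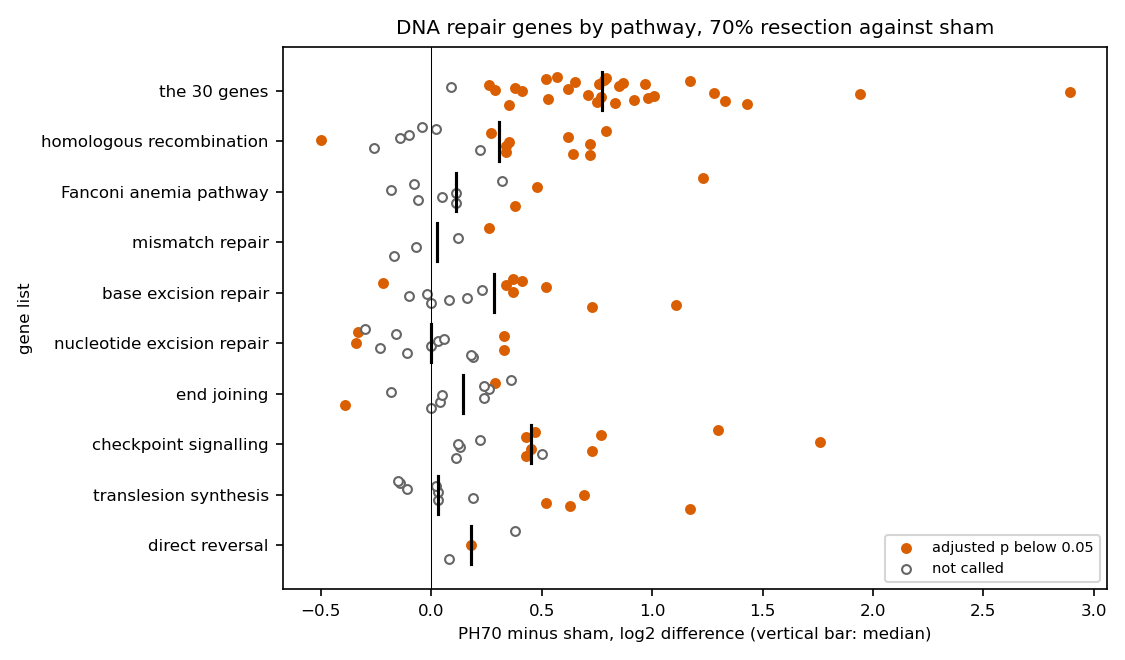
PH70 minus sham log2 difference (horizontal axis) of the 30 members and of the 94 other DNA repair genes by pathway, 1 point per gene, filled where the adjusted p was below 0.05, with a vertical bar at each list's median. Checkpoint signalling has the highest median of the other pathways, 0.45, and nucleotide excision repair lies at 0.00.

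Markers of other cells moved beside these differences, and their part in them was not tested. Against sham, 19.9% of all genes were higher and 14.7% lower in PH90, and 10.5% were higher and 8.15% lower in PH70. Against PH70, 14.1% were higher and 10.4% lower in PH90. Of 8 macrophage markers 5 were lower and 1 higher in PH90 than in sham, and the mean of the 8 ran from -0.78 to -0.11 in PH90 rats, against -0.05 to 0.25 in sham rats. The same counts held for PH90 against PH70, whose rats ran from -0.31 to 0.44. Of 8 T and NK cell markers 5 were lower in PH90 and 2 in PH70, with means from -0.31 to -0.17 in PH90 and from -0.29 to 0.08 in PH70, against 0.04 to 0.20 in sham. Of 6 neutrophil markers 3 were higher in PH70 and 2 in PH90. Of 6 hepatocyte markers 0 were called in PH70 against sham, and in PH90 1 was higher and 2 were lower. Of 4 markers of sinusoidal endothelium 2 were lower in PH90 and 1 in PH70, and of 3 of red cell precursors 2 were lower in each. Of 5 stellate cell markers 2 were higher and 2 lower in PH90 and 0 were called in PH70, and of 5 bile duct markers 1 was higher in PH90. The mean of 3 B cell markers ran from -0.17 to 0.04 in PH90 rats and from -0.10 to 0.12 in PH70 rats, against -0.06 to 0.16 in sham rats. Because levels are lost, it is not known which defining markers are at background.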

How the data were processed

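The authors deposited 1 table of log2 values, 29489 probe sets by 30 arrays (Rat Gene 2.0 ST), made with RMA in Affymetrix Expression Console per the submitters' processing notes, with no versions given in the sources used here. The RMA step adjusts for background, brings the arrays to 1 distribution and combines a probe set's probes as log2. The deposited values run from -6.04 to 5.44, and every probe set has a median of 0 over the arrays, so levels and signal over background are lost and no filter on dim probes could be applied. The table states no scale, and log2 is taken from RMA.

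In the platform annotation 18511 probe sets carried a single gene symbol, 575 several and 10403 none. The 18511 gave 18166 genes, and the 291 with more than 1 probe set were averaged. A RefSeq gene table (GRCr8) changed 0 symbols. Genes were fitted with limma 3.58.1 in R 4.3.3 on all 30 arrays with a mean for each group and default eBayes moderation; tests were two-sided and adjusted by Benjamini-Hochberg over 18166 genes (25 residual and 3.71 prior degrees of freedom). Rats are separate animals with numbers of their own that pair none of them, and precision rests on 6 arrays per group. The steps were tested on simulated data.

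The members, the lists of other repair genes and the cell markers were chosen with earlier results of these data known. Lowest, median and highest rats are given, in each role, for the members with the largest and smallest PH70 minus sham difference and for members called in PH30 against sham, PH90 against PH70 or sham against unoperated, as well as for the members called in PH90 against sham, which were added after their values were seen. Of the other repair genes the 5 with the largest called PH70 difference are named. Alternatives were unoperated rats in place of sham, fits of 2 groups alone, fits without rats 95 and 139, each rat left out in turn, array weights, quantile normalization, the most variable probe set per gene, a filter on low SD and a robust prior.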

Additional observations from a re-analysis of the deposited data

Results flagged for a closer look

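In each group of 6 rats the highest and lowest rat was set against its nearest neighbour by Dixon's gap ratio, at its 95% critical value for 6 values. Of 150 tests, 30 members in 5 groups, 27 passed, and chance alone passes about 1 in 20. The members vary together, so these are not 27 separate observations, and nearly all concern 2 rats.

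PH30 rat 95 lay far above the other PH30 rats in the median of the members, 0.90, and in 11 members. Its log2 values were 1.24 for Usp1, 1.19 for Fanci, 1.14 for Chek1, 1.03 for Brca2 and for Exo1, 1.02 for Rad51ap1, 0.98 for Topbp1, 0.88 for Rad54l, 0.74 for Polq, 0.58 for Palb2 and 0.37 for Parp1.

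PH70 rat 139 lay far below the other PH70 rats in the median of the members, -0.06, and in 13 members. Its values were -0.34 for Fancd2, -0.31 for Brca2, -0.26 for Fanca, -0.10 for Clspn and for Rad54l, and -0.09 for Brca1, H2ax and Rad18. They were -0.02 for Bard1 and Brip1, 0.01 for Timeless, 0.02 for Fanci and 0.05 for Topbp1.

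PH90 rat 43 lay above its group in Brca2 (0.44) and Pold3 (0.18), and unoperated rat 151 lay below its group in Parp1 (-0.15).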

How the results depend on the processing

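No direction of a called difference turned round in the alternatives run. Of the members called, those that kept their call in all fits were 27 of 29 in PH70 against sham (Rad1 and Parp1 did not), 13 of 20 in PH90 against PH70, 4 of 9 in PH90 against sham, 1 of 1 in PH30 against sham, 2 of 2 in PH90 against PH30 and 0 of 4 in PH70 against PH30. The number called higher in PH30 against sham, 1 as reported, was 2 against unoperated rats, 4 in a fit of the 2 groups alone, 12 without rats 95 and 139, 10 with array weights, 15 after quantile normalization, 6 after a filter on genes of low SD, 2 with a robust prior and 1 to 5 with 1 rat left out. In PH90 against sham, 9 as reported, it was 18 for the 2 groups alone, 19 without the 2 rats, 16 with array weights and 5 to 11 with 1 rat left out. In PH70 against PH30, 4 as reported, it was 0 for the 2 groups alone, 29 without the 2 rats, 28 with array weights, 8 after quantile normalization and 0 to 27 with 1 rat left out. In PH90 against PH30, 2 as reported, it was 5 without the 2 rats, 4 with array weights and 2 to 5 with 1 rat left out. For sham against unoperated rats 3 were lower in a fit of the 2 groups alone, in place of 0, and the F test between resections passed 13 in place of 24 in a fit of the 3 resected groups alone. The causes were not tested. Quantile normalization was applied to the centred values, so it gave every array the same spread of values. The median difference over all genes lay within 0.02 of 0 with and without it, and so cannot show what it changed. The share of all genes called higher went from 2.2% to 4.95% in PH30 against sham. In PH90 against PH70 it went from 14.1% to 5.99%. No paired analysis was possible because the rat numbers are names that no 2 groups share. The most variable probe set per gene changed nothing for the members, which have 1 probe set each. Signal over background is not known, and 6 arrays per group limit the precision.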
